A study of Caenorhabditis elegans with 22 samples.

Results

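The map described here is that of contacts between the genome and EMR-1 in intestine cells of first-stage (L1) Caenorhabditis elegans larvae that lacked CEC-4 and came from mothers fed RNAi against mrg-1, called the combination. It rests on 6 of the 22 libraries of the study, 3 of Dam::EMR-1 (strain GW1379) and 3 of GFP::Dam (strain GW1380), which were set against each other by replicate number over all 10030 nuclear bins of 10 kb. Both strains carry the deletion cec-4(ok3124), and the comparison asks which contacts are found when neither CEC-4 nor normal MRG-1 is present. The cec-4 larvae came from the same strains on control RNAi (3 libraries of each fusion). Larvae under mrg-1 RNAi alone (replicates 2 and 3 of each fusion) and wild-type larvae on control RNAi (3 of each) came from strains GW1377 (Dam::EMR-1) and GW1378 (GFP::Dam), which have an intact cec-4. All groups shared the transgene system. The hsp-16.41 promoter drove the fusions at trace level without heat shock, and a FLP recombinase under the elt-2 promoter limited them to the intestine. RNAi was by feeding of the mothers for 66 h at 20 °C from the L1 stage, and their larvae hatched without food and spent 2.5 h in liquid culture with bacteria lacking Dam. The RNAi was incomplete as a model of loss of MRG-1: the labels give F1 adult sterility of 30 to 50% as its check, and they give no level of mrg-1 RNA.

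DamID uses the bacterial adenine methyltransferase Dam, fused to a protein of interest, to leave methyl marks on nearby GATC sites, which are then amplified and sequenced. EMR-1 is the worm emerin, a LEM-domain protein of the inner nuclear membrane, so Dam::EMR-1 marks DNA near the nuclear periphery, and GFP::Dam moves freely through the nucleus and marks accessible DNA. In C. elegans the arms of the autosomes carry much of the chromatin with methylated histone H3 lysine 9 and lie near the nuclear envelope, and their centres lie more in the interior. CEC-4 is a chromodomain protein of the nuclear envelope that binds methylated H3K9 and anchors such chromatin, and MRG-1, the worm homologue of MRG15, is a chromodomain protein associated with active chromatin marked by methylated H3K36. In bulk libraries of this kind, contact in fewer cells and weaker contact in every cell cannot be told apart.

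The Dam::EMR-1 libraries of the combination held 3335962, 4721460 and 11160000 reads in replicates 1, 2 and 3, and the GFP::Dam libraries 10721111, 6248115 and 12566253, within the range of 2240348 to 18553316 over all 22 libraries. The median 10 kb bin held 123, 251 and 338 Dam::EMR-1 reads and 388, 415 and 518 GFP::Dam reads, and 0.668 to 2.71% of bins had no Dam::EMR-1 read. Dam::EMR-1 replicate 1 was thus the shallowest of the 6. A single bin with the ribosomal RNA genes (I:15060001-15070000) took 1.46, 0.939 and 0.661% of Dam::EMR-1 reads and 22.3, 7.75 and 20.0% of GFP::Dam reads. Leaving it out before scaling shifted the median log2 ratio over all 10 kb bins by −0.14. The reads carry no molecular identifiers and come from PCR, so they are not independent molecules. The labels name the replicates as biological replicas, and the p-values measure the spread between replicates pooled over all 22 libraries.

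The loci of the study's own tools check the labels only in part. Levels are in CPM, reads scaled to a common library total. Log2 ratios are Dam::EMR-1 over GFP::Dam as fitted by edgeR's quasi-likelihood test with their SE, and a bin was called at an adjusted p under 0.05. The bin of cec-4 (IV:7576181-7577325) had 56.4, 76.9 and 69.3 CPM of Dam::EMR-1 against 123, 145 and 197 CPM of GFP::Dam (log2 −1.34 ± 0.47, edgeR adjusted p = 0.0207). Its 10 kb cover far more than the gene, and the labels give no breakpoints, so the reads do not check the deletion. The call was lost without Dam::EMR-1 replicates 1 or 2 or GFP::Dam replicates 1 or 3 (edgeR adjusted p up to 0.0759). RNAi leaves the gene in place, and the mrg-1 bin (III:12871029-12874656) was not called, at 140, 109 and 103 CPM against 65.6, 77.3 and 53.2 CPM (0.72 ± 0.45, edgeR adjusted p = 0.177), although the groups did not overlap. The emr-1 bin (I:1842445-1843222) was lower, at 68.1, 39.0 and 48.4 CPM against 228, 271 and 167 CPM (−2.17 ± 0.35, edgeR adjusted p = 0.000136). The bin of elt-2, whose promoter drove the recombinase, was lower as well, at 22.8, 15.7 and 3.05 CPM against 191, 111.6 and 66.0 CPM (−3.47 ± 0.59, edgeR adjusted p = 0.00019). That of hsp-16.41, the source of the fusions' promoter, had 171, 992 and 154 CPM against 98.8, 124 and 89.5 CPM (1.76 ± 0.58, edgeR adjusted p = 0.0155), and Dam::EMR-1 replicate 2 stood far above the others. Its call was lost without Dam::EMR-1 replicate 2 or GFP::Dam replicates 2 or 3 (edgeR adjusted p up to 0.302). Reads from the transgene's copy of this promoter and from the gene itself cannot be told apart.

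In the combination Dam::EMR-1 marked some bins more and others less than GFP::Dam did. Of 9960 bins of 10 kb with enough reads, 3010 were called higher (30.2%) and 2801 lower (28.1%) by edgeR's quasi-likelihood test at an adjusted p under 0.05. The scaling of the libraries sets the zero of the ratio and with it the balance of the calls, which was 2902 higher and 3419 lower in DESeq2, 3070 and 2662 with scaling by library size and 2777 and 2981 without the ribosomal RNA bin. In larger bins of 100 kb, 368 of 1004 were called higher (36.7%) and 382 lower (38%). All 3 pairs of one replicate number lay on the same side of an even ratio in 80.1% of the 10 kb bins, above it in 4204 and below it in 3772. In called-higher bins the median level of Dam::EMR-1 was 134, 140 and 108 CPM in replicates 1, 2 and 3, against 24.9, 46.4 and 27.6 CPM of GFP::Dam. In called-lower bins it was 11.4, 23.1 and 8.15 CPM of Dam::EMR-1, against 91.1, 129 and 94.9 CPM of GFP::Dam. The fitted log2 ratios had an SD over bins of 2.22 in the combination, against 2.49 under mrg-1 RNAi, 2.08 in cec-4 larvae and 2.56 in wild type.

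Contacts with EMR-1 lay mainly in the arms of the autosomes, taken as the outer parts of each chromosome divided into 3 equal lengths. Of 5458 tested bins in autosome arms, 2472 were higher (45.3%) and 989 lower (18.1%), and their median log2 ratio was 0.96. Among the 2736 bins of the autosome centres 359 (13.1%) were higher and 1013 (37.0%) were lower, and the median was −0.85. The X chromosome, whose arms carry less methylated H3K9 than those of the autosomes, had more lower than higher bins in its arms and in its centre. Its arms had 169 higher and 485 lower bins of 1177 (median −0.88), and its centre 10 higher and 314 lower of 589 (median −1.84). The few higher bins of the X centre numbered 5, 6 and 6 without GFP::Dam replicates 1, 2 and 3. In wild type, where 32.2% of all bins were higher and 32.6% lower, the autosome centres had 110 higher and 1596 lower bins.

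The pairs gave the same order of arms and centres on every chromosome. For a pair value, 1 was added to each CPM, the log2 of Dam::EMR-1 over GFP::Dam was taken within a replicate number, and the mean over the 10 kb bins was formed. Over the autosomes the arms exceeded the centres by 1.33, 1.43 and 1.54 in pairs 1, 2 and 3, and on X by 0.92, 0.81 and 0.92. The contrast differed widely between chromosomes. On II it was 2.62, 2.53 and 2.78, on V 1.43, 1.51 and 1.67, and on IV 1.47, 1.48 and 1.64. Chromosome III had 0.75, 0.93 and 0.91, and chromosome I only 0.26, 0.61 and 0.55. Every pair of I thus lay below every pair of the other autosomes.

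**Figure D1:**
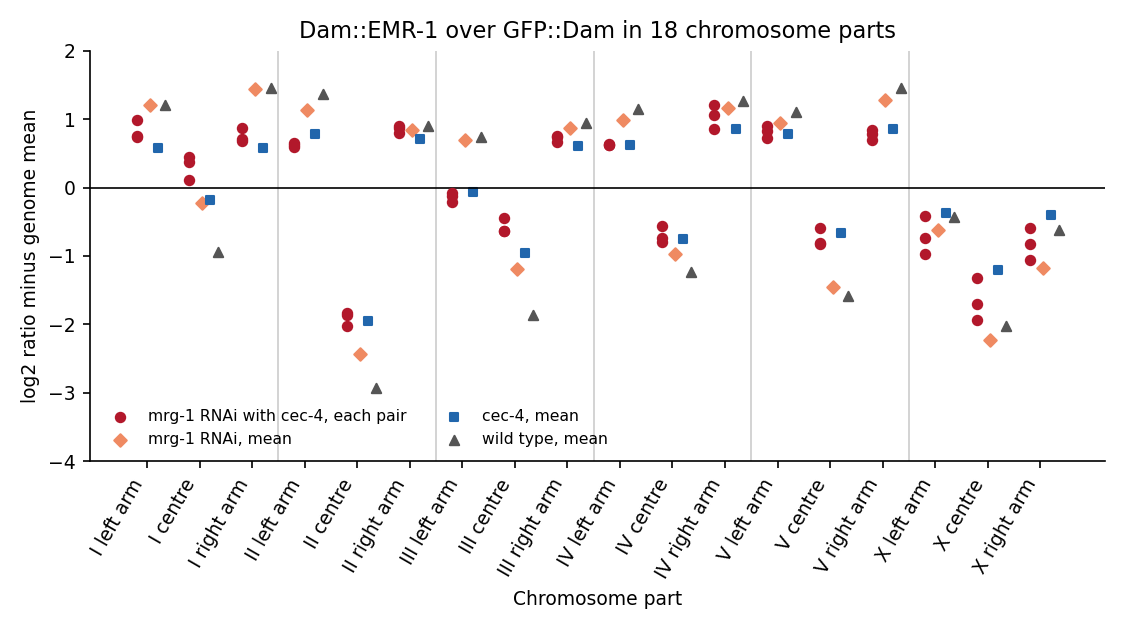
Pair values of the 3 parts of each chromosome minus the mean over all nuclear bins of that pair (log2), for the combination and the other 3 backgrounds. Each pair is shown for the combination, and only the mean for each other background. In the combination the pairs of the centre of I lie above the genome mean (mean 0.31), and the centre of II has the lowest mean at −1.91.

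To place each part of a chromosome against the whole genome, the genome mean of each pair was taken off, and 18 parts were tested with limma. In the combination 10 parts stood above the mean (55.6%) and 7 below it (38.9%). The right arm of IV was the highest, at 1.2, 0.86 and 1.06 in the 3 pairs (mean 1.04 ± 0.10 SE). It was followed by the right arm of II at 0.85 ± 0.08 and the left arm of I at 0.83 ± 0.09. The centre of II was the lowest at −1.86, −1.84 and −2.03, and the centre of X followed at −1.94, −1.32 and −1.70. The X arms were also below the mean, at −0.71 ± 0.10 on the left and −0.83 ± 0.09 on the right. No call was made for the left arm of III (pairs −0.12, −0.08 and −0.21, limma adjusted p = 0.0989), and that arm had means of 0.69 under mrg-1 RNAi, −0.07 in cec-4 larvae and 0.74 in wild type. With narrower arms the left arm of X was not called (−0.16, limma adjusted p = 0.114).

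The centre of chromosome I (I:5020001-10050000) stood above the genome mean, at 0.45, 0.11 and 0.38 in pairs 1, 2 and 3 (limma adjusted p = 0.00532). Its means were −0.23 under mrg-1 RNAi, −0.18 in cec-4 larvae and −0.94 in wild type. Before the genome mean was taken off, the pair values were 0.49, −0.12 and 0.05, on both sides of an even ratio, and the call was not made on that scale (mean 0.14) or without the pair of replicate 1 (0.24). At 10 kb, 161 of its 503 bins were higher, and 20.7% were lower, in the combination. In the other maps 72 were higher and 134 lower under mrg-1 RNAi, 87 and 121 in cec-4, and 36 and 213 in wild type. Over all bins of the combination, 30.2% were higher and 28.1% lower. The share of higher bins in the centre of I was thus near that of all bins in this map. In the other maps, 26.1% of all bins were higher and 26.9% lower under mrg-1 RNAi, 28% and 25% in cec-4, and 32.2% and 32.6% in wild type. The centre of II (II:5090001-10190000) had 19 higher and 297 lower bins of 509, against 0 and 409 in wild type. Its higher bins numbered 9 without Dam::EMR-1 replicate 3, 11 without GFP::Dam replicate 1 and 8 without GFP::Dam replicate 3.

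Along the autosomes the signal did not simply decline from the ends. Relative to the genome mean it was 0.91 ± 0.07 (SD, n = 3 pairs) within 0.5 Mb of an end, 1.25 ± 0.13 between 0.5 and 1 Mb, 0.46 ± 0.05 between 1 and 1.5 Mb, and again 0.99 ± 0.06 between 3 and 3.5 Mb. It went below the genome mean between 5.5 and 6 Mb, at −0.23 ± 0.18. The outermost 0.5 Mb averaged 1.24 under mrg-1 RNAi, 0.86 in cec-4 larvae and 1.37 in wild type. The ends of the X differed from each other. Its left end stood at 0.81 ± 0.11 in the first 0.5 Mb, and its right end at −1.30 ± 0.44, and on the left the signal was −2.74 ± 0.53 between 5 and 5.5 Mb.

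**Figure D2:**
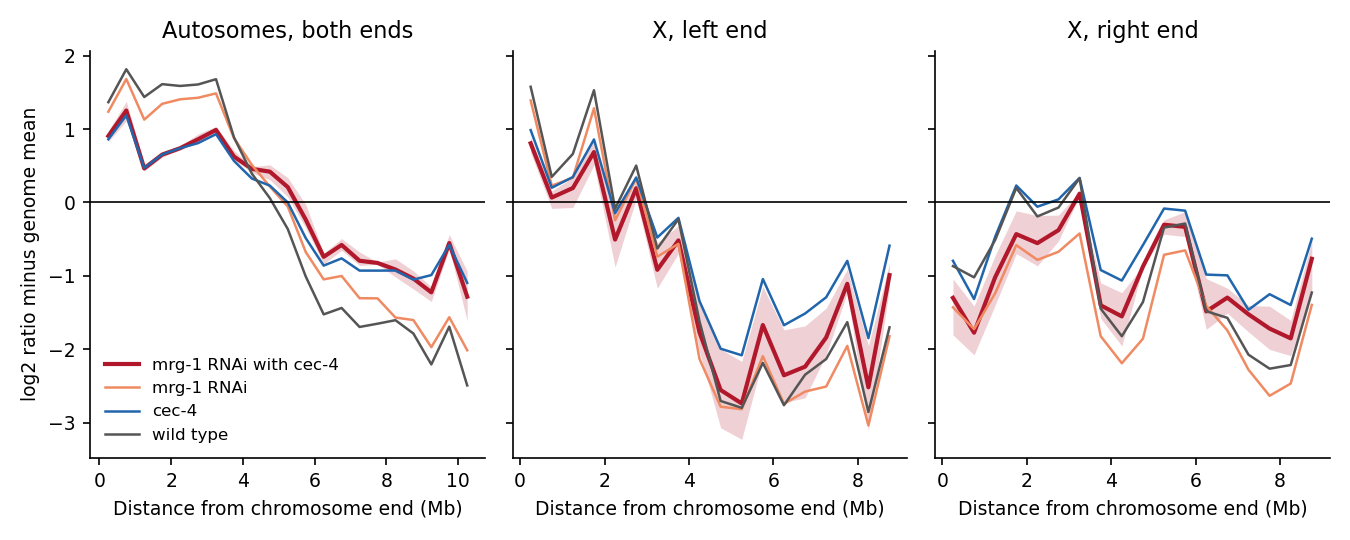
Mean log2 ratio minus the genome mean of each pair (y axis) by distance to the nearer chromosome end in steps of 0.5 Mb (x axis), for autosomes and for each end of X, in the combination and the other backgrounds. Autosomes are above the genome mean out to 5.5 Mb in the combination, and X only near its left end and in single steps further in.

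Higher bins came in many short runs and a few long ones. The 3010 higher bins formed 1072 runs of neighbouring bins, of which 435 were single bins and 30 held 10 or more, all 30 in autosome arms. The longest spanned 180 kb on the right arm of II (II:14610001-14790000), from mltn-9 to tac-1, and contains unc-52, which encodes the basement membrane proteoglycan perlecan. Its pair values were 2.73, 1.92 and 2.07. A run of 160 kb on the left arm of I (I:3340001-3500000) holds msh-6, a mismatch repair gene, and had pair values of 2.61, 1.77 and 2.14. Runs of 150 kb lay near the left ends of II (around dmsr-4, which encodes a neuropeptide receptor) and III (fem-2 to idpp-1). Runs of 140 kb lay near the right ends of IV, with 4 genes of the skr family of Skp1-related proteins, and V, with mlt-11, which is needed for moulting, and 4 transthyretin-related ttr genes. Across these 6 runs the mean pair values were 2.01 to 2.52 in the combination. The mean of the first run was 2.24 in the combination, against 2.13 under mrg-1 RNAi, 2.39 in cec-4 larvae and 2.46 in wild type.

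Stretches that Dam::EMR-1 marked least were longer than the longest contacts. The 2801 lower bins formed 1136 runs, and 28 held 10 or more bins, with 14 of these in the centres and 3 in the arms of autosomes and 11 on X. The longest, 260 kb in the centre of II (II:6830001-7090000), runs from egl-27 to kat-1 and holds flcn-1 (folliculin), sod-1 (superoxide dismutase) and unc-104 (a kinesin of synaptic vesicle transport). It collected 609, 1487 and 1356 reads of Dam::EMR-1 in all, against 36634, 23623 and 44741 of GFP::Dam. Its pair values were −3.97, −3.33 and −4.43, and its mean in wild type was −4.72. Other runs were a stretch of 220 kb in the centre of III from polq-1 (DNA polymerase theta) to gcna-1 and one of 210 kb on the left arm of X from ncr-1, a homologue of the Niemann-Pick C1 gene, to flp-11. The 3 pair values of the run on X were −3.38, −2.86 and −3.67, and with narrower arms that run would fall in the centre.

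Islands of the opposite sign lay inside both kinds of region. The longest lower runs within autosome arms were 130 kb on II around pod-2 (II:1120001-1250000), which encodes acetyl-CoA carboxylase, and 130 kb on III (III:9610001-9740000) with tbg-1 (gamma tubulin) and hcp-3 (the centromeric histone). The pod-2 island had pair values of −3.11, −2.80 and −3.16 in the combination, and means of −2.33 under mrg-1 RNAi, −2.38 in cec-4 larvae and −1.63 in wild type. The other long ones were 120 kb on V with unc-83, which encodes a protein of the outer nuclear membrane, 90 kb on III around orc-3 and pes-4 with a cluster of fbxa F-box genes, and 90 kb on III with brc-1 (the BRCA1 homologue) and dpy-27 (dosage compensation). The islands with tbg-1, unc-83 and brc-1 lie in the inner part of their arms, and with narrower arms they would fall in the centres. Within autosome centres the 5 longest higher runs were all on chromosome I. The first (I:7190001-7280000, 90 kb) holds myo-1, a pharyngeal myosin heavy chain, with the transcription factor genes hlh-2 and nhr-23. Its pair values were 2.43, 1.29 and 1.94 in the combination, and its means 0.67 under mrg-1 RNAi, 1.38 in cec-4 larvae and −0.18 in wild type. The next, of 80 kb, holds ceh-6, unc-120 and sod-2 and had pair values of 2.96, 1.85 and 3.02.

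The bins with the highest ratios were poor in GFP::Dam reads and lay mostly in arms. Each bin is named by the protein-coding gene that overlaps it most, and values are those of the bin. The first was that of nccd-1 (IV:16988697-16989783), with 74, 23 and 38 reads of Dam::EMR-1 against 0, 1 and 2 of GFP::Dam (fitted log2 ratio 6.43 ± 1.78 SE, edgeR adjusted p = 0.00557). Because GFP::Dam had 3 reads in all, the ratio of summed reads per library size was 69.2, with a 95% Clopper-Pearson interval of 23.2 to 339.6, which covers counting error only. The bin of mlt-4 (V:20281387-20289417), a gene needed for moulting, had 24.6, 18.9 and 26.7 CPM of Dam::EMR-1 against 1.12, 2.4 and 0.716 CPM of GFP::Dam (log2 4.22 ± 0.89, edgeR adjusted p = 0.000848). The bin of lgc-7 (IV:14709586-14714738), of the ligand-gated ion channel family, had 43.2, 12.9 and 11.8 CPM against 0.746, 1.76 and 0.637 CPM (4.44 ± 1.13, edgeR adjusted p = 0.00312). In these 3 bins every Dam::EMR-1 library was above every GFP::Dam library, and each call held without any 1 of the 6 libraries. So did that of srg-54, a chemoreceptor gene on the right arm of V, at 4.35 ± 1.32.

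The other 6 of the 10 highest bins lost their call when a library was left out. These were the bins of the chemoreceptor genes str-155 (log2 5.05 ± 1.80) and srv-14 (4.73 ± 1.58), the channel genes lgc-10 (4.60 ± 1.64) and del-4 (4.2 ± 1.56), the neuropeptide receptor gene dmsr-3 (4.41 ± 1.43) and the transcription factor gene hlh-32 (4.37 ± 1.35). For str-155 and del-4 the call was lost without any library but Dam::EMR-1 replicate 2, with edgeR adjusted p up to 0.083 and 0.11. For srv-14 it was lost without Dam::EMR-1 replicate 1 or GFP::Dam replicates 1 or 3 (up to 0.0796), and for lgc-10 without Dam::EMR-1 replicate 1 or any GFP::Dam library (up to 0.0906). For dmsr-3 it was lost without Dam::EMR-1 replicate 3 or GFP::Dam replicate 1 (up to 0.0687), and for hlh-32 without Dam::EMR-1 replicate 1 (0.0831). Without the replicate number as a block, str-155 and lgc-10 were not called (edgeR adjusted p = 0.0676 and 0.0896).

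The 10 lowest bins kept their calls without any 1 library, and 4 of them were in arms of III and 1 in an arm of II. With narrower arms the bin of ncx-7 on III would fall in the centre. The bin of lelo-2 (III:1419853-1427226) had 1, 1 and 2 reads of Dam::EMR-1 against 199, 161 and 2079 of GFP::Dam (log2 −8.08 ± 1.29, edgeR adjusted p = 0.000135). Bins with more reads gave ratios of the same order. That of klf-3 (II:6618218-6622168), a Krüppel-like transcription factor gene, had 3.6, 11.6 and 0.448 CPM of Dam::EMR-1 against 244, 258 and 419 CPM of GFP::Dam (−6.33 ± 1.21). The bin of gldi-3 (II:9275024-9280098) had 2.4, 14.2 and 0.627 CPM against 292, 382 and 333 CPM (−6.57 ± 1.13). In both bins every Dam::EMR-1 library lay far below every GFP::Dam library, with Dam::EMR-1 replicate 2 the highest of its group. The others were the bins of ncx-7 (a sodium-calcium exchanger, −7.02 ± 1.22), nipa-1 (−6.98 ± 1.08), ctg-2 (−6.89 ± 1.18), pod-2 (−6.75 ± 1.28), pes-4 (−6.74 ± 1.28), kola-2 on X (−6.54 ± 1.29) and slc-36.5. In the last, 1 read of Dam::EMR-1 stood against 136 of GFP::Dam, so the GFP::Dam level was 88.5 times as high, with a 95% Clopper-Pearson interval of 15.6 to 3521.

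Genes of the intestine, the tissue in which the fusions were active, had low Dam::EMR-1 ratios. Of 46 bins with intestinal genes 35 were lower and 3 higher, against 28.1% lower and 30.2% higher of all bins, and the median log2 ratio was −2.89, against 0.10 over all bins. No RNA was measured, so the tissue label could be set only against the GFP::Dam level. Its median in intestinal bins was 86.3, 119.1 and 94.3 CPM, against 36.6, 66.9 and 41.6 CPM over all bins. The median was 51.4, 68.2 and 52 CPM in bins of muscle genes, 34.9, 68.9 and 53.1 CPM in those of neuronal genes, 72.2, 98.3 and 91.0 CPM in those of hypodermal genes, and 57.7, 101 and 88.5 CPM in those of germline genes. These levels depend on the number of GATC sites in each bin, which was not corrected for.

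Among the intestinal bins, the lowest were those of intermediate filament genes. The bin of ifb-2, an intestinal intermediate filament gene, had 14.4, 10.2 and 2.96 CPM of Dam::EMR-1 against 206, 160 and 299 CPM of GFP::Dam (log2 −4.89 ± 0.82, edgeR adjusted p = 0.000177). For ifc-2, another intermediate filament gene, the log2 ratio was −4.80 ± 0.80. The bin of asp-1, an aspartic protease gene, had 44.4, 15.7 and 11 CPM against 664, 248 and 593 CPM (−4.57 ± 0.94), and the bin of act-5, the actin gene of the microvilli, had 32.7, 76.2 and 21.9 CPM against 625, 314 and 518 CPM (−3.67 ± 0.87). Lower too were the bins of the peptide transporter gene pept-1 (−3.46 ± 1.03), the sodium-proton exchanger gene nhx-2 (−3.21 ± 0.91) and the metallothionein gene mtl-2 (−4.10 ± 0.76), the last of which also holds the endodermal GATA factor gene end-3. The higher exceptions were fat-5, a fatty acid desaturase gene, at 198, 103 and 240 CPM against 34.4, 48.3 and 62.5 CPM (1.77 ± 0.35), elt-7, a gut GATA factor gene, at 229, 138 and 83.9 CPM against 51.8, 54.9 and 27.5 CPM (1.58 ± 0.35), and the vitellogenin gene vit-5 (1.34 ± 0.36). The gut esterase gene ges-1 was not called (0.77 ± 0.34, edgeR adjusted p = 0.0573), and neither were vit-1, vit-3, vit-4 and vit-6.

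Of 94 bins with ribosomal protein or proteasome genes 52 were lower (55.3%) and 5 higher (5.32%), 37 were not called and the median was −1.64, against 28.1% lower and 30.2% higher of all bins. The higher ones numbered 2, 3 and 2 without Dam::EMR-1 replicate 3, GFP::Dam replicate 2 and GFP::Dam replicate 3. The lowest was that of rps-8 (12.6, 23.3 and 3.23 CPM against 301, 291 and 283 CPM, log2 −4.89 ± 0.69), and the bins of rpl-17 (2.12 ± 0.45) and rps-7 (2.04 ± 0.42), both in arms of I, were higher. Of 798 bins with chemoreceptor genes, large families expressed mainly in sensory neurons, 389 were higher (48.7%), 97 lower (12.2%) and 312 not called (median 1.40). Without GFP::Dam replicate 1 the lower ones numbered 63. Of all tested bins, 45.3% were higher and 18.1% lower in autosome arms, and 13.1% and 37.0% in autosome centres. In autosome arms 353 of 579 chemoreceptor bins were higher and 53 lower, and in autosome centres 35 of 196 were higher and 40 lower. They were thus higher more often than all bins of either region. Ribosomal and proteasome bins were lower in 25 of 52 arm bins (4 higher) and 26 of 41 centre bins (1 higher). They were thus lower more often than all bins of either region.

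**Figure D3:**
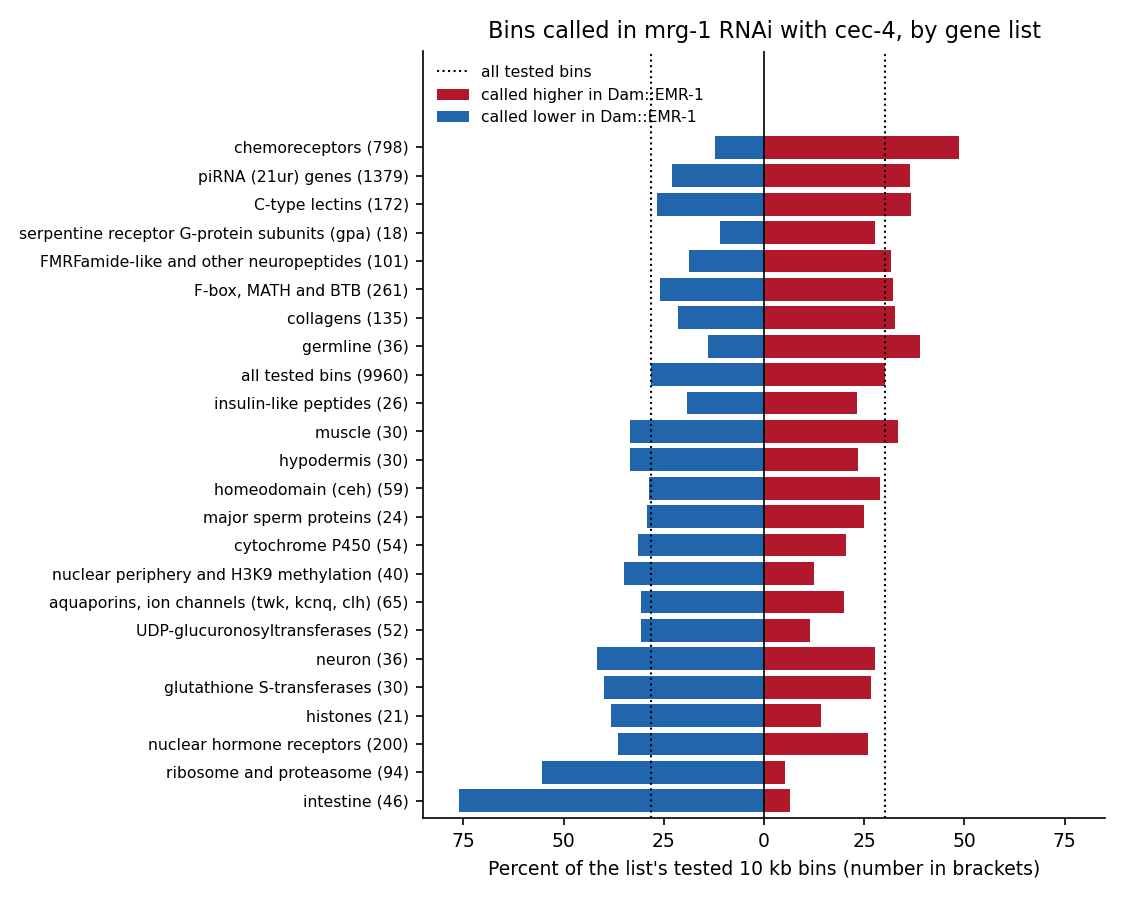
Share of tested 10 kb bins of each gene list called higher or lower in the combination map (x axis, percent), beside the share over all tested bins. Intestinal, ribosomal and proteasome bins are mostly lower, and chemoreceptor bins are the list with the greatest share higher.

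Other families in the arms gave mixed signs, set here against 30.2% higher and 28.1% lower over all bins. F-box, MATH and BTB genes, which encode substrate adaptors of ubiquitin ligases, had 84 higher (32.2%) and 68 lower (26.1%) of 261 bins (median 0.24). These shares were near those of all bins, although 88.9% of the 261 were in autosome arms. Of 232 such arm bins 82 were higher and 59 lower, against 45.3% and 18.1% of all autosome arm bins. The median of the 261 was 0.73 under mrg-1 RNAi, 0.66 in cec-4 larvae and 0.97 in wild type. Their lower bins numbered 45 without the replicate block. The bin of fbxc-55 on the left arm of II was high, with 80.3, 54.6 and 96.4 CPM against 3.26, 8 and 3.26 CPM (log2 4.06 ± 0.57), and that of math-41 on the same arm was low (−5.64 ± 0.99). C-type lectin genes, many of which serve innate immunity, had 63 higher and 46 lower of 172 bins. Their lower bins numbered 28 without GFP::Dam replicate 1. Nuclear hormone receptor genes had 52 higher and 73 lower of 200 bins (median −0.70), with nhr-234 at 3.64 ± 0.46 and nhr-153 at −6.01 ± 1.16.

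Genes specific to other tissues had bins on both sides, set here against 30.2% higher and 28.1% lower over all bins. Muscle genes had 10 higher and 10 lower of 30 bins, near those shares, and their median was −0.13. The bin of hlh-1, the MyoD homologue, had 166, 244 and 347 CPM of Dam::EMR-1 against 20.1, 61.8 and 40.3 CPM of GFP::Dam (log2 2.58 ± 0.37), and unc-15 (paramyosin), in the centre of I, stood at 2.62 ± 0.50. Both of these named bins are among the 10 higher ones, and as many muscle bins were lower. Without Dam::EMR-1 replicate 3 the lower muscle bins numbered 6. Neuronal genes had 10 higher and 15 lower of 36 bins, from snt-1, the synaptotagmin gene (−5.01 ± 1.05), to che-1, the transcription factor gene of a taste neuron (2.96 ± 0.57), which shares its bin with the germline helicase gene glh-2. Hypodermal genes had 7 higher and 10 lower of 30, and the lower ones numbered 6 without Dam::EMR-1 replicate 1. The bin of mlt-11 among them was at 2.87 ± 0.52 and that of the junction gene dlg-1 at −4.78 ± 0.78. Genes of the germline had 14 higher and 5 lower of 36 bins (median 0.17). The lower ones numbered 2, 2 and 3 without Dam::EMR-1 replicate 3, GFP::Dam replicate 1 and GFP::Dam replicate 3. The bin of rme-2, the yolk receptor gene of the oocyte, had 1308, 706 and 1663 CPM against 131, 138 and 157 CPM (2.92 ± 0.46), and that of the meiotic recombination gene spo-11 had 15.0, 25.0 and 25.0 CPM against 184, 260 and 249 CPM (−3.56 ± 0.79).

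The genes of the nuclear periphery and of H3K9 methylation were themselves mostly uncalled or lower. Of their 40 bins 21 were not called, 14 were lower (35%) and 5 higher (12.5%), and the median was −0.39. Over all bins 4149 of 9960 were not called, 28.1% were lower and 30.2% higher. The bins of the acetyltransferase gene cbp-1 (−5.11 ± 0.87), the nuclear anchorage gene anc-1 (−4.64 ± 0.76) and baf-1, whose product bridges DNA to LEM proteins (−3.50 ± 0.82), were lower. The H3K9 methyltransferase genes met-2 (−0.04 ± 0.47) and set-25 (0.77 ± 0.52) were not called. The lamin gene lmn-1 was not called either (2.67 ± 1.35, edgeR adjusted p = 0.0986), with 24.0, 3141 and 275 CPM of Dam::EMR-1 against 58.7, 167 and 100 CPM of GFP::Dam. Replicate 2 decides that value, and it was also far above the other Dam::EMR-1 libraries at npp-5, a nuclear pore gene (95.3, 1859.8 and 225 CPM against 128, 144 and 170 CPM).

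The smaller families are also to be read against 30.2% higher and 28.1% lower over all bins. Neuropeptide genes had 32 higher and 19 lower of 101 bins, collagens 44 and 29 of 135, and homeodomain genes of the ceh group 17 and 17 of 59, of which 11 were lower without GFP::Dam replicate 3. Cytochrome P450 genes had 11 higher and 17 lower of 54 bins. UDP-glucuronosyltransferase genes had 6 and 16 of 52, and 3 higher without any 1 library other than Dam::EMR-1 replicate 2. Glutathione S-transferase genes had 8 and 12 of 30, and 5 higher without Dam::EMR-1 replicate 3 or without GFP::Dam replicates 1 or 2. Channel genes (twk, kcnq, clh and aquaporins) had 13 higher and 20 lower of 65. Insulin-like peptide genes had 6 and 5 of 26, and 3 and 2 higher without GFP::Dam replicates 2 and 3. The gpa genes of G-protein subunits had 5 and 2 of 18, with 3 higher without GFP::Dam replicate 2. Major sperm protein genes had 6 and 7 of 24, with 4 lower without GFP::Dam replicates 1 or 3, and histone genes had 3 and 8 of 21. The last families have near-identical copies, and how reads were divided among copies is not given in the sources used here.

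Noncoding genes and pseudogenes were counted on both sides of the map, where 30.2% of all bins were higher and 28.1% lower. A called-higher bin held 0.280 pseudogenes on average and a called-lower bin 0.101, against 1.86 and 2.08 protein-coding genes. Of 1457 bins with a pseudogene 625 were higher and 241 lower (median log2 0.93). Genes of piRNAs, the small RNAs of the germline, averaged 3.04 per higher bin and 0.523 per lower bin. On IV, which holds most of them, the averages were 15.3 and 3.17, and over the genome 502 of 1379 bins with such genes were higher and 316 lower. Bins with transfer RNA genes had 82 higher and 149 lower of 429 (median −0.59). These genes were frequent on X, in 5.59% of its higher bins, 10.4% of its lower bins and 10.5% of its uncalled bins. In autosome centres they were in 2.79% of higher, 3.06% of lower and 3.37% of uncalled bins. In autosome arms the shares were 2.51%, 3.54% and 3.46% in the same order. Bins with small nuclear or nucleolar RNA genes had 68 higher and 165 lower of 393 (median −0.95), and those with miRNA genes 55 and 75 of 206 (median −0.62).

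To show which contacts were found in all backgrounds, the called bins of the 4 maps were compared. The maps share no library. Of the 3010 bins higher in the combination, 2263 were also higher under mrg-1 RNAi (75.2% of the combination's and 87.1% of the mrg-1 RNAi bins), 2470 in cec-4 (82.1% and 88.5%) and 2530 in wild type (84.1% and 78.9%). All 4 maps shared 2037 higher bins, 67.7% of those in the combination, of which 1864 lay in the arms and 76 in the centres of autosomes, and 97 on X. Another 254 (8.44%) were called higher in no other map, which is not by itself a difference between maps. Of the 2801 lower bins 2369 were lower in wild type (84.6% and 72.9%), and 1837 in all 4 maps (65.6%), among them 776 in centres and 521 in arms of autosomes, and 540 on X. Only 8 bins higher in the combination were lower in wild type, and 12 lower ones were higher there.

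Against wild type, arms and centres were closer to each other in the combination. The autosome arms exceeded the centres by 1.44 ± 0.10 in the combination (SD, n = 3 pairs), against 2.33 ± 0.10 under mrg-1 RNAi (n = 2), 1.53 ± 0.17 in cec-4 larvae and 2.86 ± 0.32 in wild type. No pair of the combination reached any pair of wild type, and the difference was −1.43 (two-sided exact permutation p = 0.1, the smallest that 3 against 3 allows, adjusted 0.15 over 6 comparisons), with −1.61 to −1.08 within replicate numbers. The difference from mrg-1 RNAi was −0.90 (exact p = 0.1, the smallest possible, adjusted 0.15), with −0.86 to −0.83 within numbers. From cec-4 it was −0.096 (exact p = 0.5, adjusted 0.5), with overlapping pairs and −0.38 to 0.18 within numbers, which spans both directions. On X the contrast was 0.885 ± 0.065 in the combination, against 1.32 ± 0.09 under mrg-1 RNAi, 0.811 ± 0.063 in cec-4 larvae and 1.5 ± 0.16 in wild type. The differences were −0.44 from mrg-1 RNAi and −0.61 from wild type (exact p = 0.1 and adjusted 0.15 for both), and 0.074 from cec-4 (exact p = 0.2, adjusted 0.24), where the pairs overlapped.

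**Figure D4:**
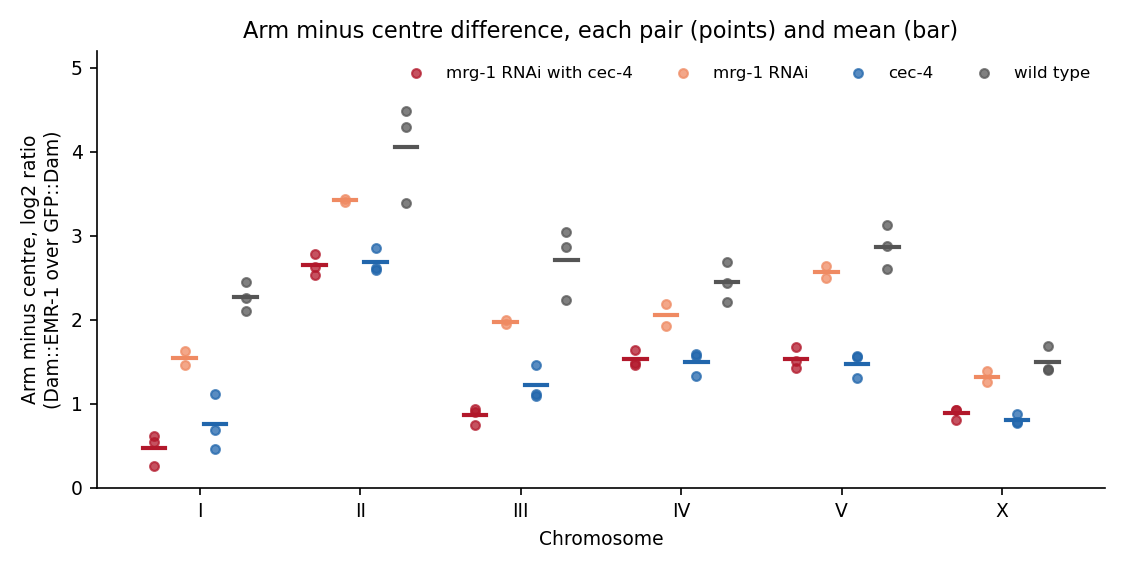
Mean pair value of arms minus that of centres (y axis, log2) on each chromosome (x axis), in the combination and the other 3 backgrounds. Points are replicate pairs and bars are means. On every chromosome the values of the combination lie below those of mrg-1 RNAi and wild type. On III they also lie below those of cec-4, and on the other chromosomes they overlap them.

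By chromosome part, 13 of 18 parts differed from wild type (72.2%, limma adjusted over 54 tests), and the 6 that were higher were the 6 centres. The centre of III was higher by 1.30 ± 0.15, that of I by 1.25 ± 0.14 and that of II by 1.02 ± 0.17, and 7 arms were lower, the left arm of III most, at −0.88 ± 0.11. Because each pair was set to its own genome mean, a rise in some parts lowers the values of others. The 5 autosome centres and the left arm of III held their calls in every alternative, including without the genome mean taken off, where the other arms and the centre of X lost theirs. The centre of X (0.37) was also lost without replicates 2 or 3 of the combination, 1 or 3 of wild type, or 1 of cec-4 (values 0.21 to 0.40). The left arm of V (−0.29) was lost with the replicate block and without any 1 pair except wild-type replicate 2. That of I (−0.37) was lost without replicates 1 or 2 of the combination or 2 or 3 of wild type (−0.34 to −0.30).

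At 100 kb, 280 of 1004 windows differed from wild type (27.9%), 194 higher (19.3%) and 86 lower (8.57%). Of the higher ones 158 lay in centres and 27 in arms of autosomes, and 9 on X. By chromosome, 50 were on III, 46 on I and 42 on II. Of the lower ones 82 were in autosome arms, 25 of them on III. Without the ribosomal RNA bin the split was 158 higher and 114 lower, and without the replicate block 175 windows were called. Counts were 205 to 325 when 1 library was left out. At 10 kb no bin was called by edgeR (1343 at an unadjusted p under 0.05), while DESeq2 called 397 (225 lower, 172 higher). Leaving out Dam::EMR-1 replicate 2 of wild type gave 585 calls by edgeR, and leaving out that of the combination gave 16.

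The windows that differed most from wild type lay in the centres of I and III and on the left arm of III. Each window carries the standard symbol of the longest protein-coding gene that reaches into it, and that gene may lie partly outside. Most of mig-10 (III:8279108-8305825), daf-2 (III:2994514-3040846), mrpl-45 (III:1196389-1202008) and rimb-1 (III:1788333-1807147) lies outside its window. The value of a window is therefore not that of the gene it is named after. The window of nmtn-1 (I:6400001-6500000) had pair values of 1.55, 0.53 and 1.12 in the combination, against −1.06, −1.10 and −1.10 in wild type, a difference of 2.20 ± 0.32 (edgeR adjusted p = 0.000211). That of mig-10 (III:8300001-8400000), whose product guides cell and axon migration, had 0.79, −0.41 and 0.08 against −2.12, −2.27 and −1.96 (2.34 ± 0.42, edgeR adjusted p = 0.000899). The groups were apart in both. The window of cle-1 (I:8700001-8800000), the collagen XVIII gene, had a difference of 2.61 ± 0.68, with 0.40, 2.22 and 0.00 in the combination, where replicate 2 stood apart, against −1.91, −0.86 and −1.61 in wild type. It was 1.61 without Dam::EMR-1 replicate 2 of the combination (edgeR adjusted p = 0.0486), and it also contains lmn-1, whose bin had 3141 CPM in that library. Windows of ubr-5 in the centre of I (2.15 ± 0.32) and of the cadherin gene cdh-4 on the left arm of III (2.16 ± 0.29) followed. The cdh-4 window (III:4500001-4600000) spans the inner border of that arm at III:4590000.

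On the other side was the window named after daf-2 (III:2900001-3000000), the insulin receptor gene, most of which lies outside it. Its pair values were 0.19, 0.14 and −0.16 in the combination, against 2.90, 1.75 and 2.24 in wild type. The difference was −2.20 ± 0.25 (edgeR adjusted p = 3.26e-05). The window of sms-3 (III:1500001-1600000), a sphingomyelin synthase gene, had 0.04, −0.93 and −0.87 against 2.80, 1.15 and 3.24 (−2.96 ± 0.49, edgeR adjusted p = 0.00062). The pairs of the combination and of wild type did not overlap in either window. The fitted log2 ratio of the daf-2 window was −0.04 in the combination, 1.61 under mrg-1 RNAi, 0.45 in cec-4 larvae and 2.16 in wild type, and that of the sms-3 window was −0.69, 1.33, −0.45 and 2.27 in the same order. Neither window was called against cec-4. The window of mrpl-45 (III:1200001-1300000), which holds the pes-4 island, had −4.26, −3.64 and −5.75 against −1.16, −3.25 and −1.80 (−2.52 ± 0.62, edgeR adjusted p = 0.00515), so that it was low in both. Its call was lost without the replicate block (−2.15, edgeR adjusted p = 0.0976), and the other 9 named windows kept theirs in every alternative. Windows of rimb-1, which encodes a presynaptic scaffold (−2.17 ± 0.36), and cdh-12, a cadherin gene (−2.09 ± 0.34), were the remaining named ones, both on the left arm of III.

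**Figure D5:**
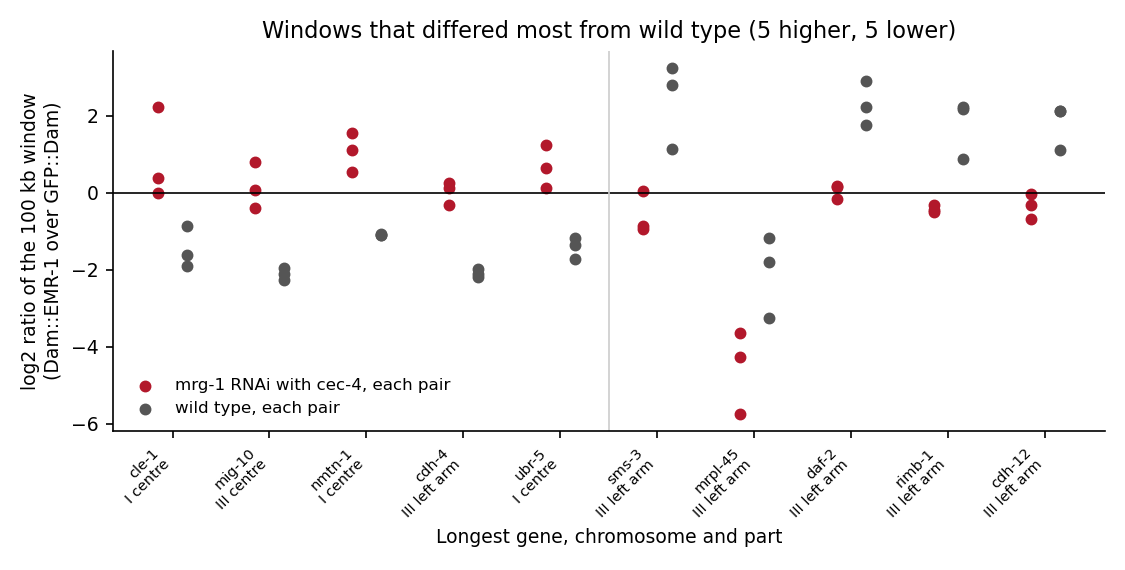
Pair values (y axis, log2 ratio) of the named 100 kb windows that differed most from wild type (x axis), with the combination and wild type side by side in each window. In the daf-2 window the 3 pairs of the combination lie between −0.16 and 0.19 and those of wild type between 1.75 and 2.90.

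Against cec-4, which differs only by the mrg-1 RNAi, no single window of 10 or 100 kb was called. At 10 kb edgeR gave 0 calls (0%) with 215 bins at an unadjusted p under 0.05, and DESeq2 gave 0 with 385. At 100 kb edgeR gave 0 (0%) with 80 unadjusted, and DESeq2 0 with 83. In simulated counts the 100 kb test of this contrast recovered 21 of 50 windows with a true change of log2 1 and 49 of 50 with one of log2 2, and smaller changes could be missed. Whole parts did differ, 5 of 18 (27.8%). The centre of I was higher in the combination by 0.49 ± 0.14 (limma adjusted p = 0.00737) and that of III by 0.38 ± 0.15 (0.0396). The X was lower, by −0.45 ± 0.14 in its centre (0.0118), −0.34 ± 0.14 on its left arm (0.0455) and −0.42 ± 0.13 on its right arm (0.0119), all on limma adjusted p over 54 tests.

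These differences from cec-4 were near the limit of what the pairs can show. Without the genome mean taken off, the centre of I differed by 0.27 (limma adjusted p = 0.550), that of III by 0.16 (0.761), the left arm of X by −0.56 (0.0996) and its right arm by −0.64 (0.0506). The call of the centre of I was lost without the pair of cec-4 replicate 1 (0.34, limma adjusted p = 0.0565). Those of the X centre and X right arm were lost without replicate 1 of the combination (−0.31, 0.0903 and −0.31, 0.0920). The centre of III kept its call only without replicate 2 of the combination or of cec-4 or replicates 1 or 2 of wild type, and in the other 7 cases it was 0.32 to 0.42 (limma adjusted p up to 0.15). The left arm of X lost its call with narrower arms (−0.25, limma adjusted p = 0.109). With a pair left out it kept its call only without replicate 2 of the combination or replicates 1 or 2 of wild type, and in the other 8 it was −0.36 to −0.21 (limma adjusted p up to 0.278). All 5 held with the replicate number as a block.

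Against mrg-1 RNAi alone, which differs by the cec-4 deletion, 12 of 18 parts differed (66.7%), 6 of them higher. The centre of V was higher by 0.71 ± 0.15 and that of III by 0.62 ± 0.17, and both held in every alternative. The centres of X (0.57 ± 0.16), I (0.54 ± 0.16) and II (0.52 ± 0.19) were higher as well, and the left arm of III was lower by −0.83 ± 0.12. The call of II was lost without either mrg-1 RNAi pair or cec-4 replicate 1 (0.50 to 0.54), that of I with narrower arms (0.33) or without mrg-1 RNAi replicate 2 (0.47), and that of X without mrg-1 RNAi replicate 3 (0.50). Without the genome mean taken off, no arm differed from mrg-1 RNAi by the test (left arm of III −0.60, limma adjusted p = 0.103). The right arm of X (0.36) also lost its call with narrower arms and without 7 of the 11 pairs in turn, and was 0.15 without mrg-1 RNAi replicate 3 and 0.24 without replicate 2 of the combination. The left arm of I (−0.37) was −0.23 without mrg-1 RNAi replicate 3 (limma adjusted p = 0.35), and its call was lost without replicates 1 or 2 of the combination or of cec-4 as well. That of the left arm of IV (−0.37) was lost without either mrg-1 RNAi pair or replicate 1 of the combination, and that of the right arm of V (−0.51) without mrg-1 RNAi replicate 3. At 100 kb, 10 windows were called (0.996%), 3 higher (0.299%) and 7 lower (0.697%), and the 7 were all in arms of III. The split was 77 higher and 44 lower with a block per fusion, 29 and 34 in DESeq2, 3 and 3 with scaling by library size, 1 and 9 without the ribosomal RNA bin and 0 and 2 without the replicate block, and no window was called with the spread of the contrast's own libraries. The daf-2 window had 0.19, 0.14 and −0.16 in the combination against 1.45 and 1.83 under mrg-1 RNAi (−1.65 ± 0.28, edgeR adjusted p = 0.00629). That of frm-8 (III:3200001-3300000), a FERM domain gene, had −2.06, −0.59 and −1.78 against 0.74 and 1.21 (−2.50 ± 0.44, edgeR adjusted p = 0.00629). Windows of ogdh-2 (1.79 ± 0.37) and fig-1 (1.45 ± 0.33) in the centre of V and of zyg-1, a kinase gene of centriole duplication in the centre of II (1.55 ± 0.34), were higher. The calls of daf-2 and frm-8 were lost with the spread of the contrast's own libraries, and without Dam::EMR-1 replicate 3 or either GFP::Dam library of mrg-1 RNAi (edgeR adjusted p up to 0.108). Those of ogdh-2, fig-1 and zyg-1 were lost in these cases, without the replicate block (edgeR adjusted p = 0.256 for each) and without GFP::Dam replicates 1 or 2 of the combination, among others.

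The count of windows against mrg-1 RNAi depended on single libraries. It was 0 without Dam::EMR-1 replicate 3 or GFP::Dam replicates 2 or 3 of mrg-1 RNAi, and 48 without Dam::EMR-1 replicate 2 of mrg-1 RNAi. Leaving out Dam::EMR-1 replicates 1, 2 and 3 of the combination gave 21, 19 and 4, and leaving out its GFP::Dam replicates 1, 2 and 3 gave 2, 3 and 5. At 10 kb edgeR called 0 (0%) with 632 at an unadjusted p under 0.05, and DESeq2 called 31. Without Dam::EMR-1 replicate 2 of mrg-1 RNAi edgeR called 124.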

How the data were processed

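Methylation by Dam::EMR-1 or GFP::Dam was read out in 22 libraries, 6 of them from the combination. The authors' deposited tables hold the count of mapped reads per 10 and 100 kb bin for each library, not normalized, on build ce11 per the submitters' processing notes. A deposited log2 table per background held, to within 0.01 in 9923 of the combination's bins, the log2 of the ratio of read shares after averaging that ratio over replicate numbers, and 107 bins could not be compared. For the aligner, its filters and repeats, the method is not given in the sources used here. The 1 kb tables, with a median of 1 to 8 reads per bin in the combination's Dam::EMR-1 libraries, were not tested. All 22 columns of the count tables were matched to a sample, and 0 columns were left over.

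Counts were fitted with the quasi-likelihood test of edgeR 4.0.16 under R 4.3.3 (filterByExpr, TMM scaling) over all 22 libraries, with the replicate number as a block, and p-values were adjusted by Benjamini-Hochberg over all tested bins. The SE is the absolute log2 ratio divided by the root of the F statistic. Differences between backgrounds were tested as interactions. Per the labels, strains were cultured side by side within a replicate number, which therefore pairs the libraries. As a check, deviations from group means correlated at 0.153, 0.403 and 0.367 between the fusions of the same number in the combination, and above 0.1 in 16 of 16 same-number comparisons with other backgrounds, against 2 of 32 with another number. Pair values used CPM with a pseudocount of 1, and 18 chromosome parts were tested with limma 3.58.1. No library or bin value was imputed.

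Genes came from a RefSeq annotation of assembly WBcel235. Bins named were the 10 highest and 10 lowest called bins with at least 50 reads over the 6 libraries, all 3 pairs on that side and at most 1 per 100 kb, the 6 longest runs each way, the 2 highest and 2 lowest called bins of each list, and the 5 largest called 100 kb windows each way per contrast. The loci of cec-4, mrg-1, emr-1, elt-2 and hsp-16.41 were always read. Other genes and the islands were named after their values were seen. Members, lists and alternatives were chosen with earlier results of these data known. In a check on simulated data, the 10 kb test of the combination map recovered 15 of 50 bins with a true log2 change of 2 and 44 of 50 with one of 3. Far fewer of the 9960 bins were changed there than were called in the map. The adjusted threshold was therefore stricter, and these rates do not give the sensitivity of the map itself. Alternatives were DESeq2 1.42.0, library-size scaling, no filter, no replicate block, a spread from the contrast's own libraries, a pseudocount of 5, other arm boundaries, summed counts and leaving out each library. Leaving out the ribosomal RNA bin and a block per fusion were added after seeing the data.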

Additional observations from a re-analysis of the deposited data

Results flagged for a closer look

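The Dam::EMR-1 ratio of the combination differed from that of other backgrounds by a test of the difference itself in 280 windows of 100 kb against wild type and 10 against mrg-1 RNAi, and in 13, 5 and 12 of 18 chromosome parts against wild type, cec-4 and mrg-1 RNAi.

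Against wild type (combination minus wild type, log2), the centres were higher, by 1.30 on III, 1.25 on I, 1.02 on II, 0.84 on V, 0.53 on IV and 0.37 on X. Arms were lower, with −0.88 for the left arm of III, −0.74 for the left arm of II, −0.71 for the right arm of I, −0.69 for the right arm of V, −0.53 for the left arm of IV, −0.37 for the left arm of I and −0.29 for the left arm of V. Against cec-4 the centre of I (0.49) and of III (0.38) were higher, and the centre (−0.45), right arm (−0.42) and left arm (−0.34) of X lower. Against mrg-1 RNAi the centres of V (0.71), III (0.62), X (0.57), I (0.54) and II (0.52) and the right arm of X (0.36) were higher. The left arm of III (−0.83), right arm of I (−0.69), left arm of II (−0.51), right arm of V (−0.51), left arm of I (−0.37) and left arm of IV (−0.37) were lower.

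Among windows of 100 kb, the named differences from wild type were 2.61 (cle-1), 2.34 (mig-10), 2.20 (nmtn-1), 2.16 (cdh-4) and 2.15 (ubr-5), and −2.96 (sms-3), −2.52 (mrpl-45), −2.20 (daf-2), −2.17 (rimb-1) and −2.09 (cdh-12). Those from mrg-1 RNAi were 1.79 (ogdh-2), 1.55 (zyg-1) and 1.45 (fig-1), and −2.50 (frm-8), −1.93 (pqn-41), −1.92 (rimb-1), −1.69 (cdh-12) and −1.65 (daf-2). All named windows that were lower against either background lie on the left arm of III.

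Outside the nuclear bins, Dam::EMR-1 replicate 1 of the combination held 232 mitochondrial reads, against 0 and 1 in Dam::EMR-1 replicates 2 and 3 and 0 in each GFP::Dam library of the combination.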

How the results depend on the processing

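Bins of 10 kb called higher numbered 2356 to 3070 and those called lower 2255 to 3419 over the alternatives, with 2902 and 3419 in DESeq2 1.42.0. Without the replicate block they were 2356 and 2285, and windows of 100 kb 337 and 351. DESeq2 shifted the median over all 10 kb bins by −0.23 and library-size scaling by 0.11. Parts called numbered 16 to 18, and 17 with the replicate block. The autosome contrast of arms and centres was 1.21 with a pseudocount of 5, 1.24 with narrower arms and 0.83 from summed counts, and that of X 0.70, 1.06 and 1.01. Parts that differed from another background numbered 30 in all, 29 with the replicate block, 12 without the genome mean taken off, and 21 to 30 with a pair left out.

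Windows of 100 kb that differed from wild type numbered 175 without the replicate block and 205 to 325 with a library left out. Those that differed from mrg-1 RNAi numbered 2 without the replicate block, 6 with library-size scaling, 0 with the contrast's own spread, 63 in DESeq2, 121 with a block per fusion and 0 to 48 with a library left out. At 10 kb DESeq2 called 397 bins against wild type and 31 against mrg-1 RNAi, and leaving out a library gave 0 to 585 and 0 to 124. The cause was not tested. Against cec-4 the counts stayed 0 in all alternatives run. No called difference changed sign, but 15 uncalled differences of a chromosome part from another background did. Without the genome mean taken off these were −0.057 (right arm of I), −0.18 (centre of II), −0.072 (right arm of II), −0.11 (right arm of III), −0.17 (centre of IV), −0.22 (left arm of IV), −0.040 (right arm of IV) and −0.19 (left arm of V) against cec-4, 0.082 (right arm of III), 0.11 (right arm of IV), 0.10 (left arm of V) and 0.14 (left arm of X) against mrg-1 RNAi and 0.12 (right arm of II) against wild type. With a pseudocount of 5 they were −0.026 (centre of II, cec-4) and 0.013 (right arm of II, wild type), and with narrower arms −0.076 (left arm of IV, cec-4) and −0.12 (right arm of II, mrg-1 RNAi). With a pair left out, values ranged over −0.016 to 0.13 (centre of IV), −0.025 to 0.034 (left arm of IV), −0.16 to 0.020 (centre of V) and −0.0045 to 0.083 (left arm of V) against cec-4, and over −0.019 to 0.045 (right arm of II) and −0.24 to 0.037 (left arm of X) against mrg-1 RNAi. Of single named bins, 29 of 175 alternative values lost the call, all in the same direction, and among the 18 differences of named 100 kb windows 63 of 326 did so, 1 of them against wild type. Dam::EMR-1 replicate 1 was the shallowest library of the map, and in simulated counts the 10 kb test against cec-4 found 21 of 50 bins changed by log2 3.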
